A study of Rattus norvegicus with 10 samples.

Results

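Cholesterol synthesis genes and targets of the transcription factor SREBP2 were described in 10 male rats aged 13 weeks, whose white adipose tissue was measured with 1 expression array per animal. The genes were 8 chosen by name, Hmgcs1, Idi1, Fdps, Sqle, Lss, Cyp51, Dhcr7 and Insig1, and every probe set that the array's annotation gives to 1 of these symbols alone was taken. This gave 10 probe sets of 7 genes, out of 31042 probe sets tested and 14217 genes with such a probe set on the array. Hmgcs1 was matched to no probe set and is not analysed here. Of the 10 probe sets, 3 had an SD of 0.01 or less over the 10 arrays and are called flat, and the 7 others, of 6 genes, are called variable. The variable probe sets are those of Idi1, Fdps, Cyp51, Dhcr7 and Insig1, with 1 each, and of Lss, with 2. Flat are the only probe set of Sqle and a further one each of Idi1 and Cyp51.

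Instant noodle made up 30% of the weight of the noodle diet, fat supplied 26% of its energy, and 5 rats received it for 30 days. The 5 control rats received the diet without seasonings, for which the labels state no composition of its own. Feeding was paired, near 60 g per kg body weight daily, with free water and 12 hours each of light and dark. The labels name no strain and no fat depot, give no time of day of sampling, and give the feeding as 4 weeks in another place. Animals are named below by their diet and the number in the labels, such as noodle 1 or control 2.

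Cells build cholesterol from acetyl-CoA by way of mevalonate, isoprenoid pyrophosphates, squalene and lanosterol. When sterols in the endoplasmic reticulum run low, SREBP2 is carried to the Golgi, cut there, and its freed part enters the nucleus and raises transcription of nearly all enzymes of the pathway. Insig1 holds the SREBP complex back in the endoplasmic reticulum and is itself a target, so its mRNA is often read as a gauge of SREBP activity. Adipocytes store much of the body's free cholesterol in their lipid droplets but make little of it compared with the liver.

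The array values are on a scale taken as log2. Array medians lay between 6.17 and 6.18, correlations between arrays lay between 0.993 and 0.998, and the number of arrays limits the precision. Only 8.40% of the probe sets tested, 2607 of them, were variable. The labels' extraction text speaks of a brain sample. Of the tissue markers, 11 of adipocytes were measured and lay at a median of 12.2, with Car3 the highest at 13.6. The 7 measured markers of brain lay at a median of 5.75, with Mbp the highest at 8.76. RNA quality was read from the control probe sets at the 3-prime and 5-prime ends of the beta-actin and Gapdh transcripts. Their difference was 0.837 ± 0.0691 for noodle rats and 0.950 ± 0.0844 for control rats (SD, n = 5 each).

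The stretches before the transcription start are shown for 4 of the genes, picked by their co-variation in the array values. A link between sequence and co-variation was not tested. Fdps, Cyp51 and Insig1 went together from animal to animal, and Lss went least with Dhcr7 and Insig1. The sequences are RefSeq's, in build GRCr8, written on the gene's strand and cut where the annotated gene begins. They lie at chr2:176804817-176805066 (minus strand) for Fdps, chr4:30991443-30991692 (plus strand) for Cyp51, chr4:8057813-8058019 (minus strand) for Insig1 and chr20:12118231-12118480 (minus strand) for Lss. Capitals mark the letters of the motifs searched for.
Fdps: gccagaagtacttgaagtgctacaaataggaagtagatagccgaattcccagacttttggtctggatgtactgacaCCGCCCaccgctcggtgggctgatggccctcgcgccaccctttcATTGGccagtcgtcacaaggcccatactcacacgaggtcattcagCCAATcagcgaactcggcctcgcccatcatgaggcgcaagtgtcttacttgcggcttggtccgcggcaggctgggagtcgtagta
Cyp51: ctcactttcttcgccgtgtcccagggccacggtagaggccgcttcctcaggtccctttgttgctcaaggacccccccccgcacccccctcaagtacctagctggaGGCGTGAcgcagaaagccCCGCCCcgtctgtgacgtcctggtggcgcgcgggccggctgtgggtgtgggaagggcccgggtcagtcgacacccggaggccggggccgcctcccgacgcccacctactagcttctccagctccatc
Insig1: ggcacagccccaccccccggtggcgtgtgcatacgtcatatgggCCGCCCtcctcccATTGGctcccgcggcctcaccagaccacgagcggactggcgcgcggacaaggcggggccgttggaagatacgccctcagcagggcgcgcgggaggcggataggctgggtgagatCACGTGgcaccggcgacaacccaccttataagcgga
Lss: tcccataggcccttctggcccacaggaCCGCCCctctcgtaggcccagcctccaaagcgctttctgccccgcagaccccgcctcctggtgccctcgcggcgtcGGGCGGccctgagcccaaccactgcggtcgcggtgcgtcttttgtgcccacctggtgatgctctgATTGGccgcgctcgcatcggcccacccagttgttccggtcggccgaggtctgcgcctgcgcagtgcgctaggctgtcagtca

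The motifs were searched on both strands in the 250 bases before the start of 33469 rat genes. RefSeq's table held a promoter for 7 of the 8 genes, Hmgcs1 included and Sqle not, but the Hmgcs1 stretch lies inside the annotated gene. In Fdps, CCAAT boxes begin 130 and 85 bases before the start. CCAAT boxes, read as CCAAT or ATTGG, bind NF-Y, which acts with SREBPs, and were present in 5 of the 7 and in 34.0% of all promoters. Outside the annotated genes they were present in 4 of 6. TCACNCC, a short form of the element that SREBPs bind, was found in Cyp51 alone among the 7, on the opposite strand 145 bases before the start, and in 12.2% of all. The GC box GGGCGG was in 6 of the 7, in 5 of 6 outside the annotated genes and in 30.5% of all, and the E-box CACGTG was in Insig1 and in 5.59% of all. A match is a match of letters only.

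The diets compared are the noodle diet and the control diet, which the series' design text describes as lacking seasonings. No probe set of the group passed the threshold in limma, and the mean of each of the 7 variable probe sets was higher in the noodle group, by 0.03 to 0.29 log2 units. The count past an adjusted p of 0.05 was 0 of 10, against 0% of all 31042 probe sets tested, and at an unadjusted p under 0.05 it was again 0 of 10, against 4.77% of all and 8.13% of the variable ones. With the flat ones, 8 of 10 had a difference above 0, against 51.3% of all probe sets. A difference above 0 was found in 44.6% of all variable probe sets, and their median difference was -0.0121, beside 0.185 for the 6 variable genes. The 7 probe sets were measured in the same 10 animals, and 2 of them are of Lss. The genes also co-varied between animals (median r = 0.609), so the shared sign is not 7 separate observations. The signs of the smallest differences were not stable. That of the variable Idi1 probe set turned negative with the 3-prime to 5-prime difference as a covariate, and that of the variable Cyp51 probe set turned negative with array weights and without noodle 1 or control 8. The groups overlapped in all 10 probe sets, and they did not overlap in 0.718% of all probe sets and 0.959% of the variable ones.

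**Figure D1:**
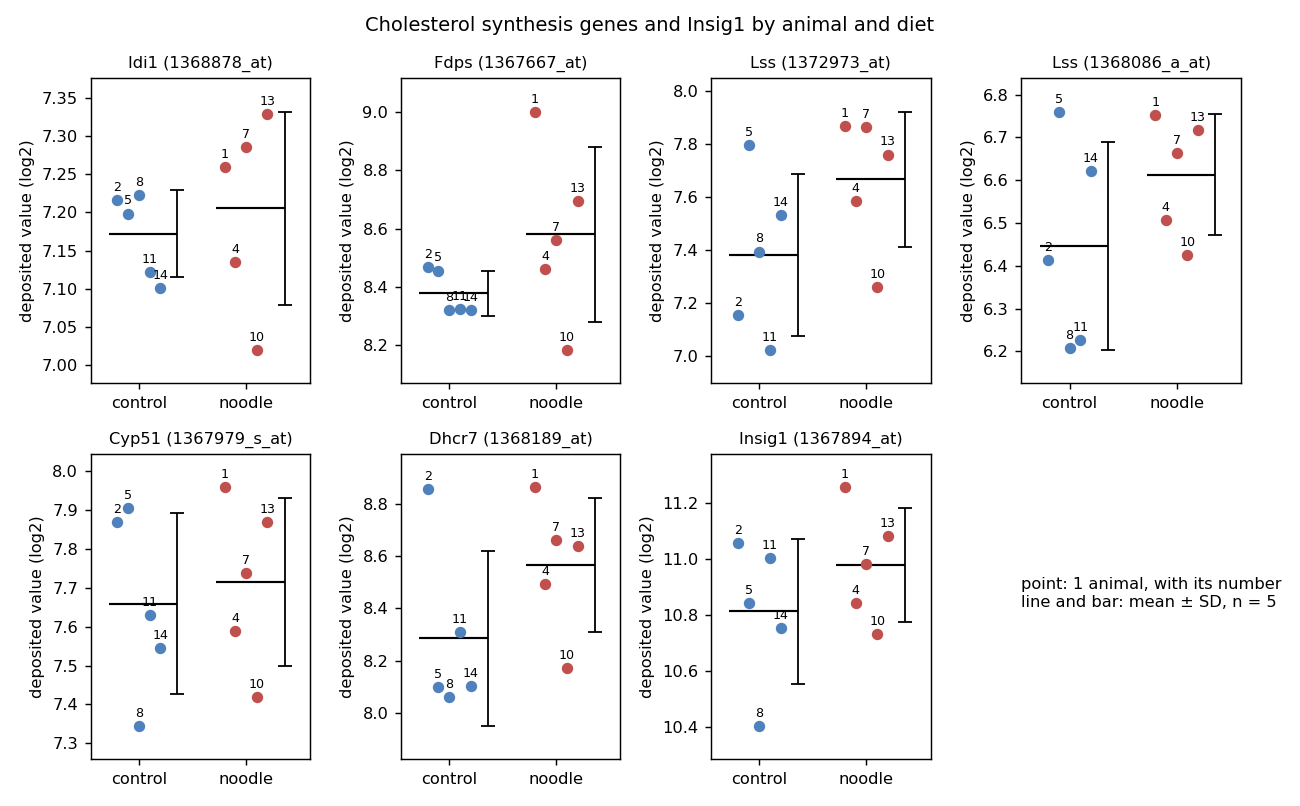
Deposited values (log2) of the 7 variable probe sets in each animal, by diet, with the animal's number beside its point and the mean ± SD (n = 5) as a line and bar. Noodle 10 is the lowest noodle rat in all 7 panels, noodle 1 is the highest in 6, and the diets overlap in every panel.

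Of the 7 variable probe sets, that of Idi1, the isomerase that makes dimethylallyl pyrophosphate, had the smallest SD over the 10 animals, 0.0938. In noodle animals 1, 4, 7, 10 and 13 its variable probe set stood at 7.26, 7.14, 7.28, 7.02 and 7.33, and in control animals 2, 5, 8, 11 and 14 at 7.22, 7.20, 7.22, 7.12 and 7.10. Noodle 1, 7 and 13 lay above every control and noodle 10 below every control. The difference was 0.03 ± 0.06 (SE, n = 5 per group), with a limma adjusted p of 0.993.

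Fdps, the farnesyl pyrophosphate synthase, stood at 9.002, 8.46, 8.56, 8.18 and 8.70 in noodle animals 1, 4, 7, 10 and 13. In control animals 2, 5, 8, 11 and 14 it stood at 8.47, 8.46, 8.32, 8.32 and 8.32. As for Idi1, noodle 1, 7 and 13 lay above every control and noodle 10 below every control, so that the noodle values spanned the controls on either side. The SD was 0.302 over the noodle rats and 0.0769 over the control rats, a difference in spread that was not tested. The mean difference was 0.20 ± 0.13, or 1.15-fold, with a limma adjusted p of 0.993, and it was 0.0981 without noodle 1.

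Sqle, the squalene epoxidase, has a flat probe set. Its mean was 6.11 with an SD of 0.000223 over the 10 arrays, so the size of a diet difference cannot be read from it.

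Lss, the lanosterol synthase that closes the first sterol ring system, had the largest difference of the 7. Its brighter probe set stood at 7.87, 7.59, 7.86, 7.26 and 7.76 in noodle animals 1, 4, 7, 10 and 13, and at 7.16, 7.80, 7.40, 7.02 and 7.53 in control animals 2, 5, 8, 11 and 14. Control 2 and 11 lay below every noodle rat, while control 5 lay within the upper noodle values. The difference was 0.29 ± 0.17, or 1.22-fold, with a limma adjusted p of 0.993 and a 95% interval from -0.106 to 0.681. The other Lss probe set, which can detect several transcripts of the gene, differed by 0.17 ± 0.12. Control 5 was the highest of all 10 animals on it, at 6.76.

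Cyp51, the lanosterol demethylase, hardly differed in its mean. Its variable probe set stood at 7.96, 7.59, 7.74, 7.42 and 7.87 in noodle animals 1, 4, 7, 10 and 13, and at 7.87, 7.91, 7.35, 7.63 and 7.55 in control animals 2, 5, 8, 11 and 14. Control 2 and 5 were as high as noodle 13, and control 8 was the lowest of all. The difference was 0.06 ± 0.14, with a limma adjusted p of 0.998. This probe set is of a kind whose probes can be shared by more than 1 transcript, and the second Cyp51 probe set is flat, with an SD of 0.00039.

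Dhcr7, the reductase of the last step to cholesterol, stood at 8.86, 8.49, 8.66, 8.17 and 8.64 in noodle animals 1, 4, 7, 10 and 13. In control animals 2, 5, 8, 11 and 14 it stood at 8.86, 8.10, 8.06, 8.31 and 8.10. Control 2 lay 0.01 or less below the highest noodle rat, and control 5, 8 and 14 lay below every noodle rat. The difference was 0.28 ± 0.18, or 1.21-fold, with a limma adjusted p of 0.993.

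Insig1, the brake on SREBP processing, stood at 11.26, 10.84, 10.98, 10.73 and 11.08 in noodle animals 1, 4, 7, 10 and 13, and at 11.06, 10.84, 10.41, 11.004 and 10.76 in control animals 2, 5, 8, 11 and 14. Noodle 1 and 13 lay above every control, and control 8 lay below every noodle rat. The difference was 0.17 ± 0.14, or 1.12-fold, with a limma adjusted p of 0.993. The 95% intervals of all 7 variable probe sets included 0, and the widest, that of Dhcr7, ran from -0.134 to 0.696.

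**Figure D2:**
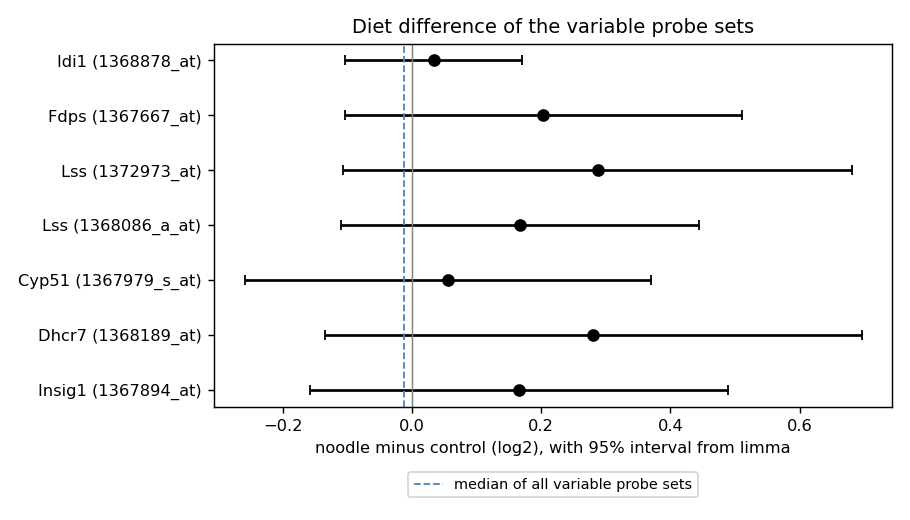
Difference between the diets (noodle minus control, log2) for each variable probe set, with the 95% interval from limma, n = 5 per diet. All 7 points lie right of 0, from 0.03 for Idi1 to 0.29 for Lss, and all 7 intervals include 0; the dashed line is the median of all variable probe sets, -0.0121.

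The size of the median difference of the 6 genes depended on single animals, on array weights and on the adjustment for RNA quality. It fell from 0.185 to 0.0974 without noodle 1, rose to 0.265 without noodle 10, and was 0.127 without control 8. With array weights it was 0.0663, and with the 3-prime to 5-prime difference as a covariate it was 0.108. Markers of other cell types were compared too, and none passed the threshold in limma. Of 12 macrophage markers, all variable, 11 had a higher mean in the noodle group, and their mean level ran from 8.26 to 8.73 in the noodle rats and from 8.15 to 8.66 in the controls. All 7 mesothelial markers had a lower mean, and their mean level ran from 6.24 to 6.98 in the noodle rats and from 6.197 to 7.57 in the controls. All 4 red blood cell markers, 3 of them variable, and all 6 mast cell markers, 5 of them variable, also had a lower mean in the noodle group. A difference above 0 was found in 51.3% of all probe sets and 44.6% of the variable ones. Other lists were mixed, with a higher mean for 7 of 11 adipocyte, 2 of 6 endothelial and 4 of 7 fibroblast and preadipocyte markers. The part of these cell types in the result was not tested, and in whole tissue fewer cells of a type and less RNA per cell cannot be told apart.

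Animals of the same diet also differed from each other. In the noodle group noodle 10 was lowest in 10 of 10 probe sets, the 3 flat ones included, while it was the lowest noodle rat in 15.5% of all probe sets and 21.0% of the variable ones. Noodle 1 was highest in 6 of the 7 variable probe sets, against 12.9% of all variable ones, and noodle 13 in the other. Over all probe sets noodle 1 was the highest noodle rat in 29.0% and the lowest in 26.6%. It was the lowest in 28.2% of the variable ones. Averaged over the 6 genes, the deviation from the mean of all 10 animals was 0.334 in noodle 1, 0.196 in noodle 13, 0.148 in noodle 7, -0.0152 in noodle 4 and -0.235 in noodle 10. All 6 genes were above their mean in noodle 1, 7 and 13, and none was in noodle 10.

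The mean deviations of the controls were 0.0700 in control 2, 0.0164 in control 5, -0.131 in control 11, -0.141 in control 14 and -0.242 in control 8. Control 2 was highest among the controls for Fdps, Dhcr7 and Insig1, control 5 for Lss and Cyp51, and control 8 for Idi1, although control 8 was lowest for 4 of the 6 genes. The range of the mean deviation in the controls, -0.242 to 0.0700, lay within that of the noodle rats, -0.235 to 0.334, except for control 8.

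Co-variation was measured between the deviations of each animal from the mean of its diet, so that a diet difference did not enter it. The 15 pairs of the 6 variable genes had a Pearson's r from 0.00624 to 0.863 with a median of 0.609 (n = 10). These pairs share genes and are not separate observations. Pairs of variable probe sets over the whole array had a median r of 0.0474, and 9.04% of those pairs lay above 0.609. All values of an animal come from the same RNA and array, so a shared technical shift would enter every pair. The median was 0.641 once the 3-prime to 5-prime difference was regressed out and 0.616 with each array centred on its median. Other shared technical shifts were not tested.

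**Figure D3:**
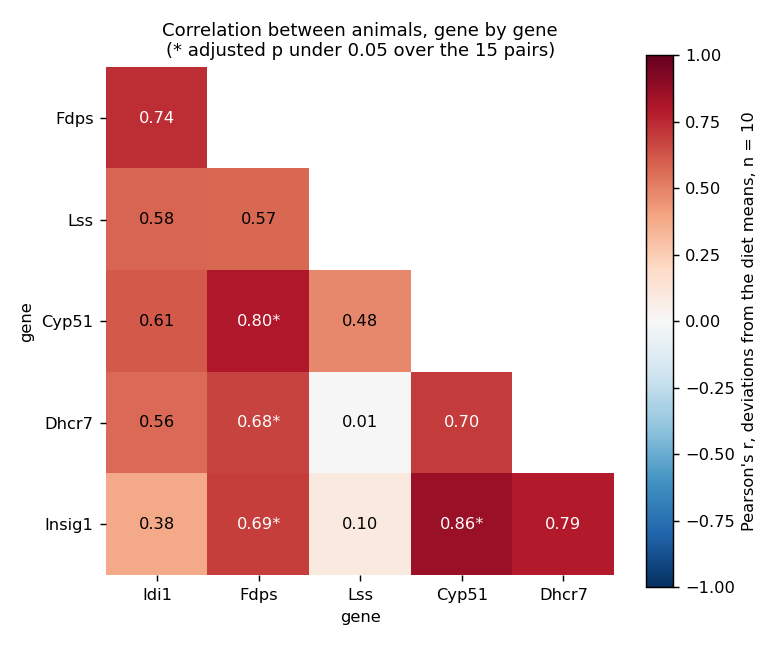
Pearson's r between animals for each of the 15 pairs of variable genes (n = 10, deviations from the diet means), coloured from -1 to 1, with an asterisk where the adjusted p is under 0.05. Fdps, Cyp51 and Insig1 have r from 0.69 to 0.86 with each other, Cyp51, Dhcr7 and Insig1 have r from 0.70 to 0.86, and Lss is close to 0 with Dhcr7 (0.01) and Insig1 (0.10).

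After adjustment over the 15 pairs, 4 passed a permutation test within diets at 0.05, and 5 did with Spearman's rho. Fdps and Cyp51 had r = 0.801 (permutation p = 0.00029, adjusted 0.00435) and rho = 0.879 (p = 0.0006, adjusted 0.009), and r was 0.844 without noodle 1 and noodle 10, the animals farthest from the median of Fdps. Cyp51 and Insig1 had r = 0.863 (permutation p = 0.00351, adjusted 0.0263) and rho = 0.830 (p = 0.00927, adjusted 0.0321), and r = 0.681 without noodle 10 and control 8. Fdps and Insig1 had r = 0.693 (permutation p = 0.00617, adjusted 0.03085) and rho = 0.867 (p = 0.00245, adjusted 0.0184), with r = 0.559 without noodle 1 and noodle 10. Fdps and Dhcr7 had r = 0.678 (permutation p = 0.00867, adjusted 0.0325) and rho = 0.758 (p = 0.0107, adjusted 0.0321), with r = 0.479 without those animals. Dhcr7 and Insig1, at r = 0.789, passed by rho = 0.818 (permutation p = 0.00802, adjusted 0.0321) and not by r (p = 0.0193, adjusted 0.0579).

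The count of pairs that passed depended on single animals. It was 0 of 15 without noodle 10, where 5.21e-03 was the lowest exact p and 7.81e-02 the lowest adjusted p, and the median r was 0.390. It was 1 without noodle 1, noodle 4 or control 2, 2 without noodle 13, and 6 without control 5. The pair of Fdps and Cyp51 passed without each of the other 9 animals, with r from 0.791 to 0.896, and had r = 0.719 without noodle 10.

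Lss had the lowest r of the 15 pairs. It was 0.00624 with Dhcr7 (permutation p = 0.988, adjusted 0.988; rho = 0.188, p = 0.628, adjusted 0.628), and -0.480 without noodle 10 and control 11, so no relation was found. Leaving out single animals moved it from -0.417 without noodle 10 to 0.398 without control 2, and it was 0.194 without control 5. In control 2, Dhcr7 was 0.57 above and Lss 0.23 below the control mean, and in control 5 Dhcr7 was 0.19 below and Lss 0.42 above it. Within the gene, the Lss probe sets had r = 0.832 (permutation p = 0.00802, adjusted 0.0195 over 3 pairs; rho = 0.794, p = 0.0107, adjusted 0.0321), with r = 0.750 without noodle 10 and control 11. The 2 Lss probe sets differed in some controls, and the pairs with other genes used the brighter one alone. In control 2 the brighter deviated by -0.225 and the other by -0.032 from the control mean. In control 8 they deviated by 0.014 and -0.239. Each gene's r with the mean of the other 5 was 0.896 for Fdps, 0.886 for Cyp51, 0.709 for Idi1, 0.695 for Insig1, 0.672 for Dhcr7 and 0.403 for Lss. Without noodle 10 that of Lss was 0.0566, that of Idi1 0.423 and that of Dhcr7 0.489, and without control 2 that of Lss was 0.616.

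**Figure D4:**
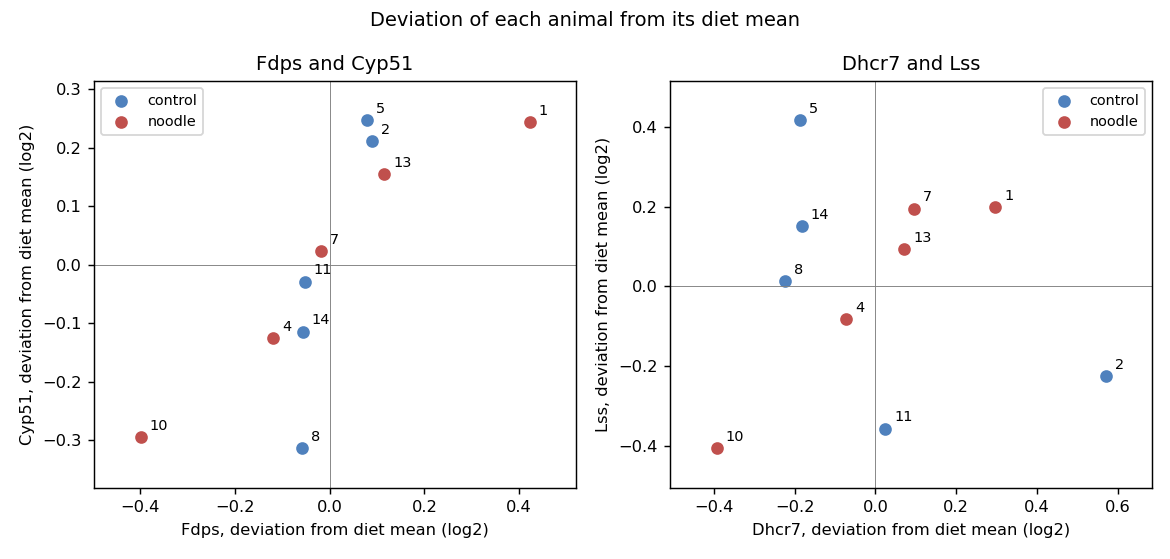
Deviation of each animal from its diet mean (log2), for Fdps and Cyp51 on the left and for Dhcr7 and Lss on the right, coloured by diet and labelled by animal number. On the left the points rise together (r = 0.801); on the right control 2 and control 5 lie in opposite corners (r = 0.00624).

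The flat probe sets varied on a far narrower scale. The flat Cyp51 probe set had r = 0.726 with the variable one (permutation p = 0.0130, adjusted 0.0195 over 3 pairs; rho = 0.673, p = 0.04285, adjusted 0.0643), and r = 0.697 without noodle 10 and control 8. The flat Idi1 probe set had r = 0.596 with the variable one, which did not pass (permutation p = 0.0900, adjusted 0.0900; rho = 0.479, p = 0.203, adjusted 0.203), and r = 0.459 without noodle 10 and control 14. Against the mean of the other variable genes, r was 0.880 for the flat Cyp51, 0.697 for the flat Idi1 and 0.5999 for Sqle, given here as a description.

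Of 15 other enzymes of the pathway listed outside the 8 genes, 13 were measured, and 0 passed the threshold between the diets in limma. Variable probe sets were found for 3 of them, Nsdhl, Acat2 and Sc5d. Nsdhl, which removes methyl groups from the sterol ring, stood at 8.11, 7.68, 7.91, 7.51 and 7.95 in noodle animals 1, 4, 7, 10 and 13, and at 7.79, 7.86, 7.73, 7.68 and 7.59 in control animals 2, 5, 8, 11 and 14. Noodle 1, 7 and 13 lay above every control, as for Idi1 and Fdps, and noodle 10 lay below. The difference was 0.10 ± 0.11 for Nsdhl and 0.10 ± 0.11 for Acat2, which makes acetoacetyl-CoA, with limma adjusted p = 0.993 for each. The second variable Nsdhl probe set differed by 0.0029 ± 0.166, and its sign turned under several alternatives. The variable probe set of Sc5d, a late desaturase, differed by -0.02 ± 0.04, and its sign turned without noodle 4 or control 5.

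A mean profile of the 6 variable genes was formed from their standardized deviations, and every other gene was set against it as a description over the 10 animals. Over 14210 genes the median r was -0.00728, and 5.78% had r above 0.5. Of the 13 sterol enzymes, 7 had r above 0.5, and their median was 0.587 (0.611 without noodle 1 and noodle 10). They were Nsdhl at 0.934, Mvk, the mevalonate kinase, at 0.735, Hsd17b7 at 0.717, Acat2 at 0.687, Sc5d at 0.647, Msmo1 at 0.595 and Fdft1, the squalene synthase, at 0.587. The probe sets used here for Mvk, Hsd17b7, Sc5d, Msmo1 and Fdft1 are flat, and the variable one of Sc5d had r = 0.708. The lowest were Mvd at 0.000505 and Ggps1, which leads away from sterols to longer isoprenoids, at -0.138.

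**Figure D5:**
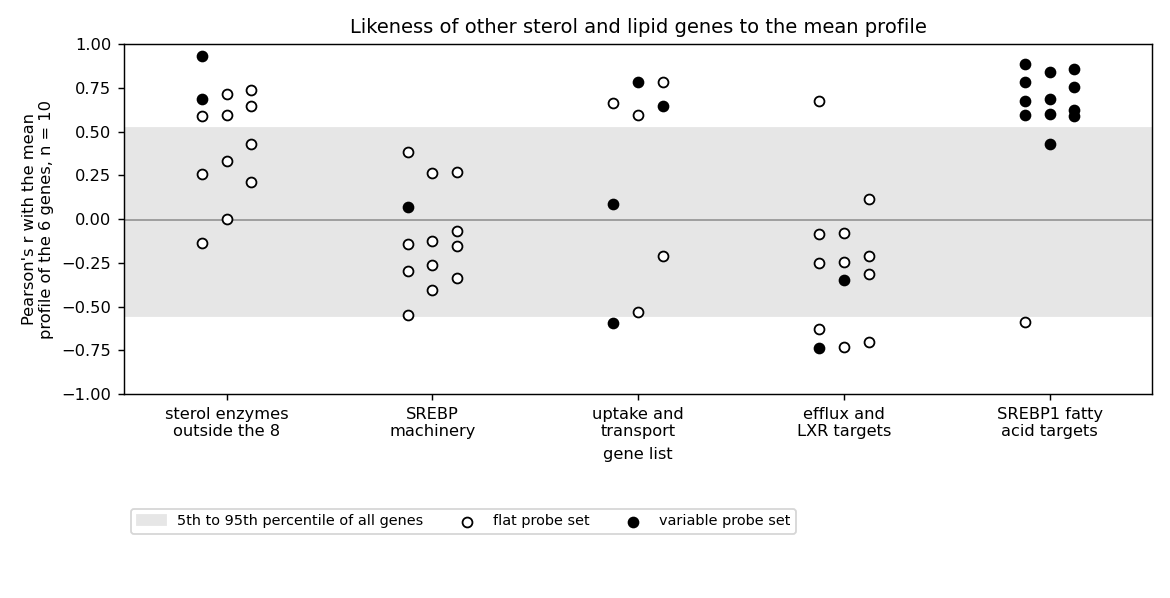
Pearson's r of each listed gene with the mean profile of the 6 variable genes over 10 animals, by list, with filled points for variable and open points for flat probe sets; the grey band spans the 5th to 95th percentile of 14210 genes, -0.555 to 0.518. Sterol enzymes and SREBP1 fatty acid targets lie mostly above the band's centre, and genes of the efflux and LXR target list mostly below it.

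The genes that control SREBP2 had no r above 0.5 with the profile among the 13 measured, and their median was -0.139 (0.0624 without noodle 1 and noodle 10). Srebf2, which encodes SREBP2 and is flat, stood at 0.384, its escort Scap at -0.126, Insig2 at 0.271 and the protease gene Mbtps1 at -0.549. Srebf1, the 1 variable gene of this list, stood at 0.0682, and its diet difference was -0.00227 ± 0.135. No gene of this list passed the threshold between the diets in limma.

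The list of SREBP2 targets in uptake and transport also holds enzymes of lipid metabolism, Fads1, Fads2, Acss2 and Lpin1. Of its 15 genes, 9 were measured, 0 passed between the diets in limma, and 5 had r above 0.5 with the profile. These were Fads2 at 0.783, Acss2, which makes acetyl-CoA from acetate, at 0.781, Tmem97 at 0.664, Fads1 at 0.648 and the lysosomal sterol carrier Npc2 at 0.596. The probe sets used here for Fads2, Tmem97 and Npc2 are flat. Under -0.5 were 2 of the 9, against 7.33% of all genes. They were Pip4p1, which is flat, at -0.531 and Lpin1, a phosphatidate phosphatase, at -0.595. Lpin1 had the smallest p of the list, with a difference of -0.17 ± 0.08 (limma adjusted p = 0.993). The other variable genes of the list differed by 0.17 ± 0.19 for Fads1, -0.13 ± 0.11 for Scarb1 and 0.08 ± 0.13 for Acss2. That of Fads1 turned to -0.136 with the 3-prime to 5-prime covariate, and that of Acss2 to -0.0318 without noodle 1. The list's median r of 0.596 fell to 0.170 without noodle 1 and noodle 10. Without these animals r was 0.674 for Fads2, 0.591 for Acss2, 0.713 for Tmem97, 0.0867 for Fads1 and 0.452 for Npc2. Pip4p1 then stood at -0.130 and Lpin1 at -0.276.

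A list of sterol efflux genes and targets of the oxysterol receptor LXR had a median r of -0.249 with the profile. Without noodle 1 and noodle 10 the median was -0.315. The list also holds Nr1h3, itself a gene of LXR, and enzymes such as Soat1 and Cyp27a1. Of 13 measured, 4 had r under -0.5, against 7.33% of all genes, and 1 had r above 0.5, the phospholipid enzyme Lpcat3 at 0.675. Those under -0.5 were the exporter Abcg1 at -0.734, Mylip, which marks lipoprotein receptors for breakdown, at -0.732, Nr1h3, the gene of LXR alpha, at -0.701, and Cyp27a1 at -0.629. Without noodle 1 and noodle 10 these became -0.549, -0.451, -0.192 and -0.515. The probe sets used here for Mylip, Nr1h3, Cyp27a1 and Lpcat3 are flat, and that of Abcg1 is variable. Abcg1 stood at 9.02, 9.26, 9.37, 9.61 and 9.15 in noodle animals 1, 4, 7, 10 and 13, and at 9.05, 9.57, 9.80, 9.37 and 9.40 in control animals 2, 5, 8, 11 and 14. It was lowest in noodle 1 and control 2 and highest in noodle 10 and control 8, the animals at the other end for Insig1. Between the diets it differed by -0.15 ± 0.15 and Apoe, a carrier of exported sterol, by 0.01 ± 0.24 (-0.282 with the 3-prime to 5-prime covariate), with 0 of 13 past the threshold in limma.

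Fatty acid synthesis genes, targets of SREBP1, went with the sterol genes from animal to animal. Of 13 measured, 11 had r above 0.5, with a median of 0.674, and 0 passed between the diets in limma. The highest were Scd at 0.884, Pnpla3 at 0.857 (0.881 for a second probe set), Scd2 at 0.841 and Acly at 0.783, and Acacb was the lowest at -0.585. Of the 12 variable genes, 8 had a higher and 4 a lower mean in the noodle group. The differences ran from -0.32 ± 0.54 for Scd to 0.46 ± 0.31 for Acly and 0.47 ± 0.38 for Pnpla3. Those of Acaca, -0.18 ± 0.39, and Gpam, 0.10 ± 0.20, turned in sign without control 5 and control 14, respectively.

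Among the 2073 other variable probe sets with 1 gene symbol, the 10 genes most like the mean profile were Nsdhl, Cwc25, Scd, Pnpla3, Ankrd40, Scd2, Acly, Acss2, Pepd and Pappa2, with r from 0.934 down to 0.774. Without noodle 1 and noodle 10 their r lay between 0.591 and 0.854. Of the 10, 6 are in the lists above, which hold 22 of the 1780 candidate genes, or 1.24%. Cwc25, a splicing factor, had r = 0.894 and Ankrd40 r = 0.873, and neither is in the lists. With each of the 6 genes left out of the profile in turn, 8 or 9 of these 10 genes stayed among the 10 most like it.

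The mean of the 4 variable adipocyte markers had r = -0.158 with the profile, that of macrophage markers 0.161 and that of endothelial markers -0.142. Mesothelial markers stood at -0.508, mast cell markers at -0.308 and brain markers at -0.341. The 3-prime to 5-prime difference had r = -0.275 with the profile, and the array median -0.315.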

How the data were processed

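The values deposited by the authors, from 4.73 to 13.9, were taken as log2. Log base, background correction, summarisation and normalization: not given in the sources used here. Most values hardly vary over the arrays, and folds are on the deposited scale. Groups came from the sample names. Of 31099 probe sets, 57 array controls were left out. Probe sets were named from the platform annotation, 20826 with 1 gene symbol, 436 with several and 9780 with none, and 20758 matched the current gene table by identifier. The probe set with the highest mean stood for a gene with several.

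Diets were compared by lmFit and eBayes of limma (version 3.58.1, R 4.3.3; two-sided, Benjamini-Hochberg over all 31042 probe sets, threshold 0.05), checked on simulated data. Correlations used deviations from the diet means, with 100000 two-sided permutations of the animals within each diet and Benjamini-Hochberg adjustment over the pairs, in Python 3.11.15 with numpy 2.4.6. Each rat is 1 sample. The genes, lists and tests were chosen with earlier results of these data known. All probe sets of the 8 genes are described. Of the other lists, up to 8 variable genes with the smallest p could be named, with the 10 genes most like and 5 least like the mean profile, and flat genes are named by their likeness, a choice made after their values were seen. Alternatives were other scalings, filters, priors, array weights, covariates and choices of probe set, and leaving out each animal; the count of pairs without each animal was added after the data were examined.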

Additional observations from a re-analysis of the deposited data

Results flagged for a closer look

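Each diet group of 5 animals was examined for an animal far from the other 4, over the variable probe sets of the sterol genes, the named pathway genes and the mean of the 6 genes. None of the 54 groups examined held one, where chance gives about 2.7 (1 in 20).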

How the results depend on the processing

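The count of 0 probe sets of the 8 genes past the threshold, and of 0 whose groups did not overlap, held under all alternatives run for each, including the removal of each animal. Over the whole array the count past the threshold was 0 under all alternatives but 1, and it lay between 0 and 1 when single animals were left out, reaching 1 without control 14. The median difference of the 6 genes stayed positive, from 0.0663 to 0.265. The count of pairs past the threshold, 4 with all animals, lay between 0 and 6 without single animals. No paired analysis was possible because no animal number occurs in both diets and which rats formed a feeding pair is not stated in the labels.

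Signs turned for some differences, none past the threshold, and the cause was not tested. The flat Idi1 probe set turned to 0.00255 with quantile normalization and 0.00166 with centring, and the flat Cyp51 to 0.00228 and 0.00134. With the 3-prime to 5-prime covariate Idi1 became -0.0191, Sqle -3.95e-05, Fads1 -0.136 and Apoe -0.282. With array weights the variable Cyp51 became -0.0326 and Srebf1 0.0318. The second Nsdhl probe set became -0.0548 with array weights, -0.0686 with the 3-prime to 5-prime covariate and -0.0182 with the animal number. Srebf1 was also 0.000232 with quantile normalization and 0.0266 with the animal number as a covariate. Without single animals the flat Idi1 ranged from -7.21e-05 to 8.91e-05, the variable Cyp51 from -0.0230 to 0.129, Srebf1 from -0.0955 to 0.0538, Acss2 from -0.0318 to 0.144, Apoe from -0.112 to 0.208, Acaca from -0.375 to 0.0572, the second Nsdhl from -0.0799 to 0.112, the variable Sc5d from -0.0310 to 0.00705 and Gpam from -0.0158 to 0.219.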

Other observations

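The 5 variable genes that ran most against the mean profile of the 6 sterol genes over the 10 animals were Cebpa, the adipogenic transcription factor gene, at r = -0.863, Ly6c at -0.845, Ccm2l at -0.819, Prickle2 at -0.810 and Syncrip-ps2 at -0.803. Without noodle 1 and noodle 10 these became -0.657, -0.761, -0.477, -0.764 and -0.789. Over the probe sets used here, Cebpa and Ly6c varied little. Between the diets Cebpa differed by -0.001965 ± 0.00968 and Ly6c by 0.00649 ± 0.0102. Ccm2l, an endothelial gene, differed between the diets by -0.46 ± 0.17, with a limma adjusted p of 0.993.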
